A study of Mus musculus with 13 samples.

Results

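The transcription factors that specify dendritic cell lineages were followed here across sorted splenic dendritic cells of mice given muramyl dipeptide or its vehicle. The set comprised Irf8, Batf3, Id2, Nfil3, Zbtb46, Irf4, Klf4, Zeb2, Bcl6 and Spi1, and a factor was taken from a probe set whose only gene symbol was its own, the probe set with the highest mean where there were several. By this rule 9 of the 10 factors were measured, among 22180 genes in all. Zeb2 lies on probe sets that also carry other symbols and was not analysed here.

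The spleens came from C57Bl/6 littermates labelled male, and their CD205+CD8+ dendritic cells were sorted. All mice carried a subcutaneous B16 melanoma that secretes Flt3L, the growth factor that expands dendritic cells, implanted at 6 weeks of age. After 5 days they were injected intraperitoneally with 50 ug of muramyl dipeptide (MDP), the peptidoglycan fragment sensed by NOD2, in 100 ul of PBS, or with PBS alone. After a further 24 h the cells were sorted into CD103 high and CD103 low fractions. CD103 is the integrin chain encoded by Itgae. The 13 arrays fell into MDP CD103 high (n = 3, replicates 2, 3 and 4), MDP CD103 low (n = 3, replicates 1, 2 and 3), PBS CD103 high (n = 3, replicates 4, 5 and 6) and PBS CD103 low (n = 4, replicates 1, 3, 4 and 6). All mice, those given PBS included, therefore bore the Flt3L-secreting tumour, and splenic cells of mice without it are not part of the comparison. No label says that every array stands for a separate mouse, and the p-values describe the spread among these 13 samples only.

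Dendritic cell lineages are set by small groups of transcription factors. Irf8 with Batf3, and upstream of them Nfil3 and Id2, specify the cross-presenting type 1 conventional dendritic cell (cDC1), to which splenic CD8+ dendritic cells belong. Irf4, Klf4 and Zeb2 are used by other dendritic cell lineages, Zbtb46 marks conventional dendritic cells as a whole, Spi1 encodes the myeloid pioneer factor PU.1, and Bcl6 is a repressor that dendritic cell development needs.

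Values below are log2 expression after RMA, a scale on which a difference of 1 is a doubling of signal. Levels of different genes are not compared, since each probe set has its own response. As a measure of background, 1105 olfactory receptor genes had mean levels with a 95th percentile of 5.12. All 17 measured markers of cDC1 lay above it, with an array mean over the list of 10.70 to 10.83. The list includes Cd8a and Ly75, the genes of CD8 and CD205, for which the cells were sorted. Below it lay 6 of 7 B cell, 5 of 7 T cell, 5 of 6 natural killer cell and 7 of 8 neutrophil markers. Most markers of monocytes and macrophages, of cDC2 and of plasmacytoid dendritic cells were not below it. Of these lists 6 of 15, 3 of 12 and 1 of 10 lay below. Within each treatment Itgae followed the sort. It was at 11.10 to 11.51 in MDP CD103 high and 9.64 to 10.68 in MDP CD103 low. In PBS mice it was at 10.07 to 10.22 in CD103 high and 7.46 to 8.35 in CD103 low. Itgae was also higher after MDP, by 2.21 ± 0.23 (SE) in CD103 low cells and 1.2 ± 0.25 in CD103 high cells. MDP CD103 low overlapped PBS CD103 high. Fractions of the same name therefore differed in Itgae between MDP and PBS. The female-specific RNA Xist was at 10.98 to 11.21 on 7 arrays, against the label of male mice, and at 4.47 to 6.69 on the other 6. These Xist-high arrays were 2 of 3 in MDP CD103 high, 1 of 3 in MDP CD103 low, 2 of 3 in PBS CD103 high and 2 of 4 in PBS CD103 low. MDP CD103 low replicate 1 stood apart in genes of mature, migratory dendritic cells, its mean over 24 such genes being 8.77, while replicates 2 and 3 of that group had 7.68 and 7.70.

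To show the DNA at which these genes start, the 250 bases upstream of their transcription starts were read from RefSeq (mouse build GRCm38.p6), in a table used here with records for 8 of the 9 measured factors. The promoter of Spi1 was not analysed here. The 8 motifs searched on both strands, written 5′ to 3′, were the STAT and BCL6 site TTCNNNGAA, the AP-1 site TGANTCA, the cAMP response element TGACGTCA, the interferon-stimulated response element (GAAA, then any 2 bases, then GAAA), the heat shock element GAANNTTC, the NFIL3 site TTANNTAA, the CArG box and the NF-kB site. The first of these was present in 3 of the 8 factors and in 4 of their 10 start windows. Of all 32851 windows of that length, 7.02% held it. The promoters below are shown because Irf8, Batf3 and Bcl6 are the factors with that motif, and Klf4 and Nfil3 stand beside them as factors whose values varied among the arrays. Capitals mark the TTCNNNGAA matches, and lower case marks all other bases.
Irf8, chr8:120736108-120736357, plus strand: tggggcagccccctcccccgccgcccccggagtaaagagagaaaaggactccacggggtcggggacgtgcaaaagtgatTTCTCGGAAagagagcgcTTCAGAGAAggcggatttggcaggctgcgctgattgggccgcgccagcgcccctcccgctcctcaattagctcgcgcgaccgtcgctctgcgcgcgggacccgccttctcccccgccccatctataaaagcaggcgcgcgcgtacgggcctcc
Batf3, chr1:191098164-191098413, plus strand: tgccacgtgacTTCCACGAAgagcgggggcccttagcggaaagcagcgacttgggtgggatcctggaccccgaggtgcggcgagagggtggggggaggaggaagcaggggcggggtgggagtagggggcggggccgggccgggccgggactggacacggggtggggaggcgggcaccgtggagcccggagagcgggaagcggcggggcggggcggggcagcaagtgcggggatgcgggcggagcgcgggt
Bcl6, chr16:23988853-23989102, minus strand: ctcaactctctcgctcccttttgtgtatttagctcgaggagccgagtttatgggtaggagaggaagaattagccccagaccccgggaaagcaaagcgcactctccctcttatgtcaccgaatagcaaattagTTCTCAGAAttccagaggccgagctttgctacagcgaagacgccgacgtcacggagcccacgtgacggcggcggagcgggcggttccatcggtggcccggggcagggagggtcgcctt
Klf4, chr4:55532476-55532725, minus strand: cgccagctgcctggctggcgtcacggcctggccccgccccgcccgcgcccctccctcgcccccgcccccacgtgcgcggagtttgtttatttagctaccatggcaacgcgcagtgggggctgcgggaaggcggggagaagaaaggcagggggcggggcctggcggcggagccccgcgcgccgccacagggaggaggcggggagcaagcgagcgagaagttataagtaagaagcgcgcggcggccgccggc
Nfil3, chr13:52981040-52981289, minus strand: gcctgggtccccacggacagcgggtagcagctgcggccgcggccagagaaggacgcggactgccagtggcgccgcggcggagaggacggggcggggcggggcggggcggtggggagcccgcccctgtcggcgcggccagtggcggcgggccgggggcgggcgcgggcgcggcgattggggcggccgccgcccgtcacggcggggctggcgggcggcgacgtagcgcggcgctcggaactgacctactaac

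The Irf8 promoter held 2 matches, which began at -171 and -153 from the start. The match in Batf3 began at -239 and that in Bcl6 at -118, and the window of the second Bcl6 start held further matches at -168, -122 and -88. The AP-1 site was found in Zbtb46, at -61, and in 6.75% of all windows. None of the 8 factors had a match to the other 6 motifs, which occurred in 1.55% of all windows for the cAMP response element, 2.98% for the interferon element, 6.69% for the heat shock element, 5.43% for the NFIL3 site, 1.47% for the CArG box and 7.25% for the NF-kB site. No matches of different motifs overlapped in these windows. A match describes these letters and is not a site shown to be bound.

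Among the factors of cDC1, the probe sets used for Irf8, Batf3 and Id2 were nearly flat across the 4 groups, with group means spanning 0.04, 0.05 and 0.09. The group means of Nfil3 spanned 0.49. None of the 9 factors passed the threshold, an adjusted p of 0.05 in limma over all 22180 genes, in any of the 7 contrasts fitted. The share of all genes that passed is given with each contrast and ran from 0.00451% to 1.82%. In bulk samples, fewer cells that transcribe a gene and less RNA of it per cell cannot be told apart.

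Irf8, the interferon regulatory factor that cDC1 need to form and persist, spanned 0.10 on the log2 scale over all 13 arrays, a 1.07-fold range. It was at 12.25, 12.23 and 12.23 in MDP CD103 high, at 12.18, 12.22 and 12.28 in MDP CD103 low, at 12.24, 12.28 and 12.27 in PBS CD103 high, and at 12.23, 12.26, 12.25 and 12.20 in PBS CD103 low. All 4 groups overlapped, and the median gene of the array spanned 0.52 over the same 13 arrays. The median level of all genes was 5.27, near the background level of 5.12. That span is therefore not one of genes with signal as high as Irf8. The difference between MDP and PBS was -0.03 ± 0.06 (SE) in CD103 high cells (95% interval -0.16 to 0.10) and -0.01 ± 0.06 in CD103 low cells (-0.13 to 0.11). The narrow span is that of the probe set used. A second Irf8 probe set, not used, had lower and more widely spread values of 8.40 to 9.05, with both ends in MDP CD103 low. Taking the mean of both gave no call either.

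Batf3, the AP-1 family partner of Irf8 in cDC1, lay between 11.00 and 11.34, and its group means were 11.22 ± 0.10 in MDP CD103 high, 11.17 ± 0.06 in MDP CD103 low, 11.18 ± 0.14 in PBS CD103 high and 11.17 ± 0.12 in PBS CD103 low (SD, n = 3, 3, 3 and 4). Id2, which holds E proteins in check and so opposes the plasmacytoid fate, lay between 9.78 and 10.21, with group means of 10.05 ± 0.08 in MDP CD103 high, 10.10 ± 0.09 in MDP CD103 low, 10.03 ± 0.08 in PBS CD103 high and 10.01 ± 0.18 in PBS CD103 low. Neither gene had groups that did not overlap. For MDP against PBS in CD103 high cells the 95% intervals were -0.17 to 0.23 for Batf3 and -0.21 to 0.24 for Id2. Itgae, in contrast, spanned 4.05 on the same arrays.

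**Figure D1:**
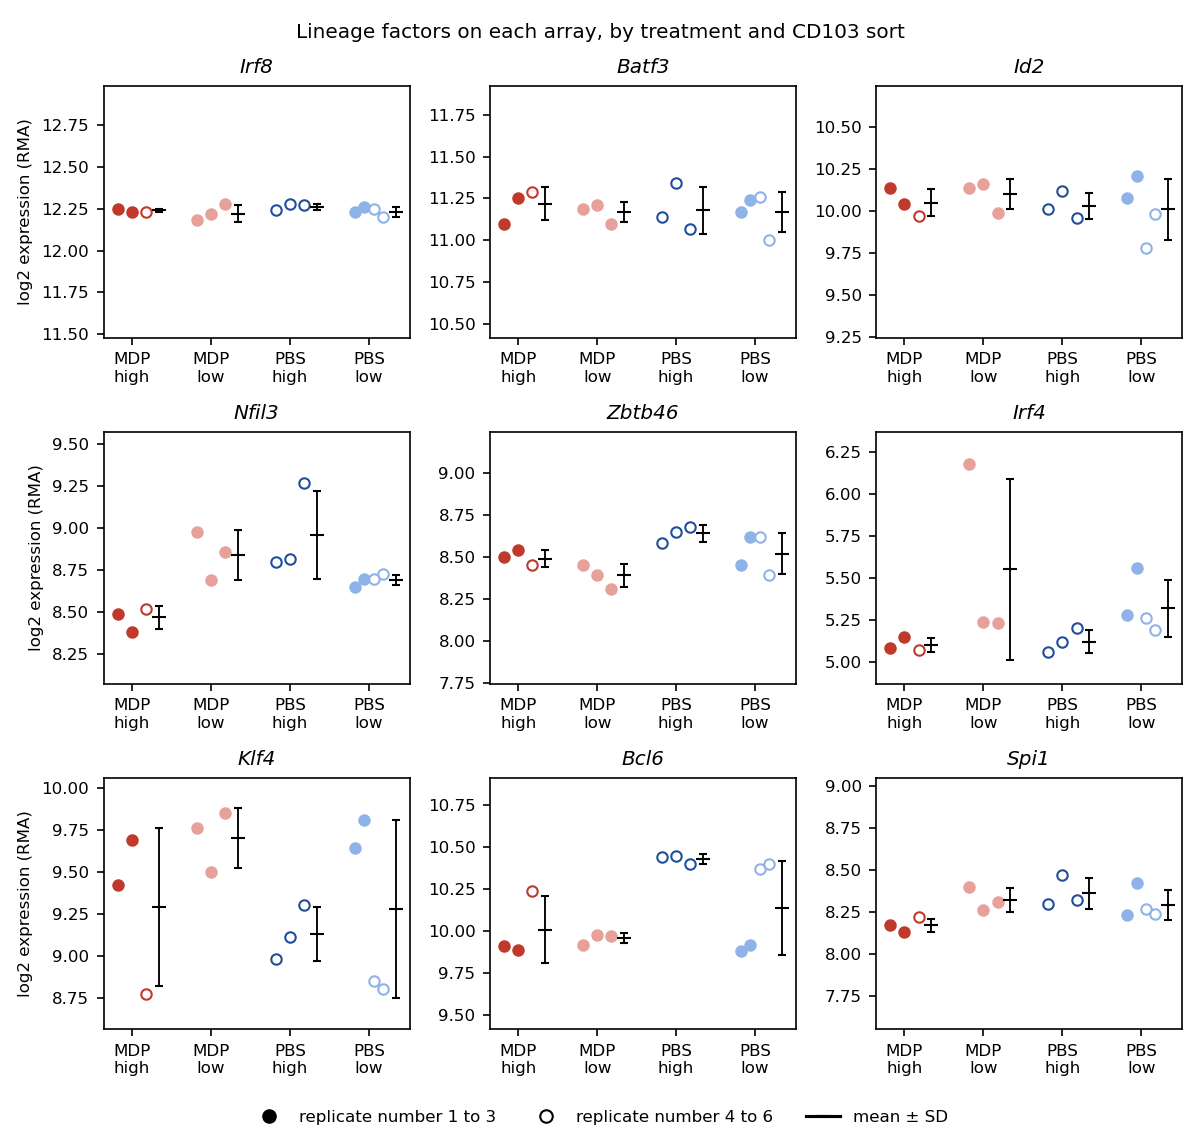
Log2 expression (RMA) of the 9 factors on each of the 13 arrays, by treatment and CD103 sort, with the mean and SD of each group as a bar. Filled points have replicate numbers 1 to 3 and open points 4 to 6. Irf8 spans 0.10, the MDP CD103 high arrays have the lowest Nfil3 values, at 8.38 to 8.52, and filled and open points separate in Klf4 and Bcl6.

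Nfil3 encodes a basic leucine zipper repressor that acts early in cDC1 development. It was at 8.49, 8.38 and 8.52 in MDP CD103 high, at 8.98, 8.69 and 8.86 in MDP CD103 low, at 8.80, 8.82 and 9.27 in PBS CD103 high, and at 8.65, 8.70, 8.70 and 8.73 in PBS CD103 low. The 3 MDP CD103 high arrays were the lowest of all 13, below every array of the other groups. The order of the group means was PBS CD103 high (8.96 ± 0.26), MDP CD103 low (8.84 ± 0.15), PBS CD103 low (8.69 ± 0.03) and MDP CD103 high (8.47 ± 0.07). Of the neighbours in that order, only the last pair did not overlap.

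In CD103 high cells, Nfil3 differed between MDP and PBS by -0.50 ± 0.12 (95% interval -0.75 to -0.24), 0.709 of the PBS level, with an adjusted p of 0.0507 in limma, just outside the threshold. In CD103 low cells the difference was 0.15 ± 0.11 (-0.08 to 0.38, adjusted p = 0.848). The difference between these responses was -0.64 ± 0.16 (-0.99 to -0.30), with an unadjusted p of 0.00138 and an adjusted p of 0.141 in limma. Between the sorted fractions, CD103 high minus low was -0.38 ± 0.12 in MDP mice (adjusted p = 0.24) and 0.27 ± 0.11 in PBS mice (adjusted p = 0.537), and in neither did the arrays overlap. Such separation in opposite directions was found in 0.739% of all genes. The value of -0.50 became -0.34 (adjusted p = 0.152) without PBS CD103 high replicate 6, the array with the highest Nfil3, and the CD103 difference in PBS mice became 0.12 ± 0.09. The MDP difference in CD103 low cells was 0.08 ± 0.12 without MDP CD103 low replicate 1. Under 7 of 25 other settings the adjusted p fell below 0.05, with a lowest value of 0.0197, and the highest was 0.532.

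Levels of mature, CCR7-type dendritic cell genes ran beside those of Nfil3. Their mean over 24 genes was 7.04, 7.09 and 7.23 in MDP CD103 high and 7.75, 8.15 and 7.89 in PBS CD103 high. It was 8.77, 7.68 and 7.70 in MDP CD103 low and 7.75, 7.83, 7.72 and 7.57 in PBS CD103 low. In CD103 high cells the median difference between MDP and PBS over this list was -0.60, against -0.01 over all genes, and 3 of the 24 genes fell, in a contrast where 1.82% of all genes passed the threshold (88 lower and 315 higher). Among the 3 were Ccr7, the receptor that guides mature cells to lymph nodes (-1.80 ± 0.34, adjusted p = 0.0194), and the chemokine Ccl5 (-2.24, adjusted p = 0.0311). Of 24 cell cycle genes 17 passed the threshold in the other direction, higher in MDP than PBS, against 315 of all 22180 genes, such as the replication licensing gene Cdc6 (1.27, adjusted p = 0.00428), and array means of 9.18 to 9.36 in MDP CD103 high and 8.41 to 8.80 in PBS CD103 high. Their part in the Nfil3 difference was not tested.

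**Figure D2:**
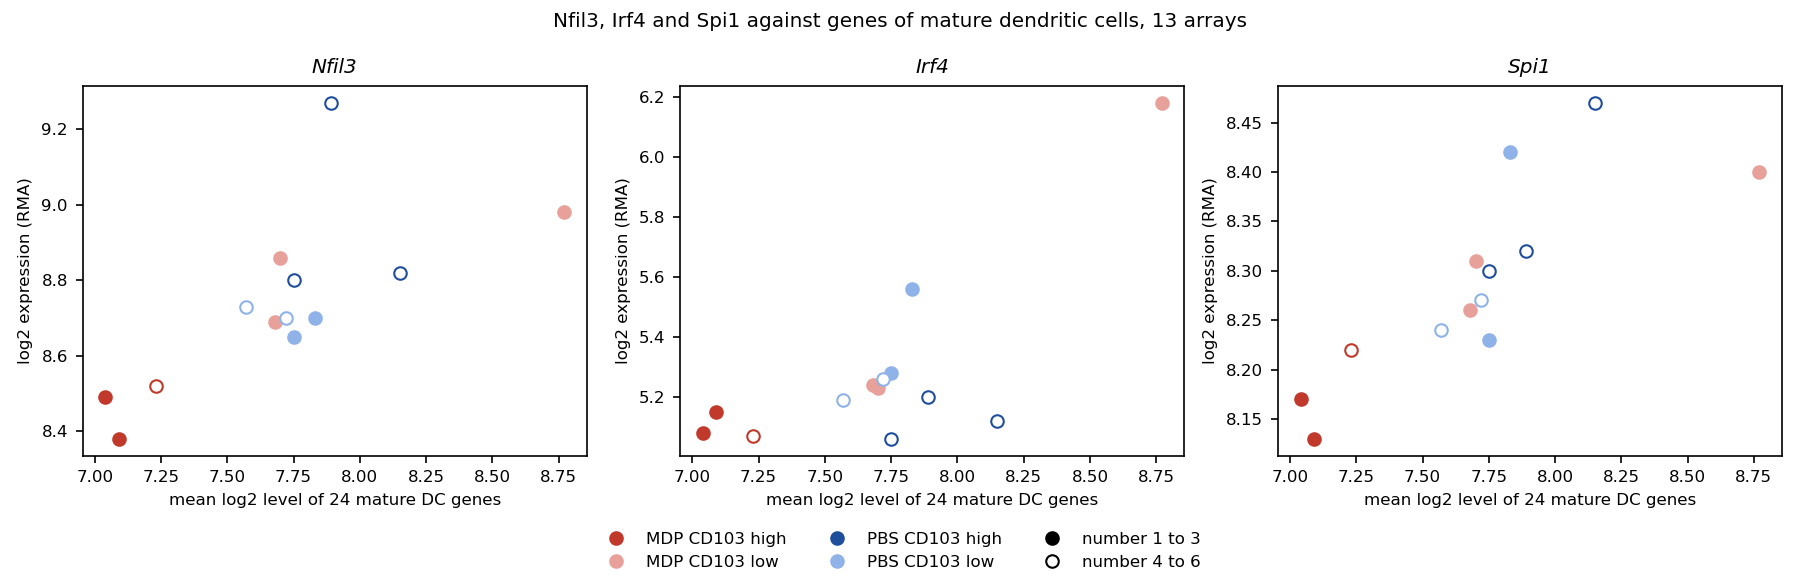
Log2 expression (RMA) of Nfil3, Irf4 and Spi1 against the mean log2 level of 24 genes of mature dendritic cells, 1 point per array, with colour for the group and filled or open points for replicate numbers 1 to 3 or 4 to 6. The MDP CD103 high arrays, at 7.04 to 7.23 on the horizontal axis, have the lowest Nfil3, and MDP CD103 low replicate 1, at 8.77, has the highest Irf4.

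Spi1 and Zbtb46, which all conventional dendritic cells express, differed little. PU.1 transcripts were at 8.17, 8.13 and 8.22 in MDP CD103 high, at 8.40, 8.26 and 8.31 in MDP CD103 low, at 8.30, 8.47 and 8.32 in PBS CD103 high, and at 8.23, 8.42, 8.27 and 8.24 in PBS CD103 low. As for Nfil3, the 3 MDP CD103 high arrays were the lowest of all 13, here by a narrow margin. The difference between MDP and PBS in CD103 high cells was -0.19 ± 0.08 (95% interval -0.36 to -0.02, adjusted p = 0.302), and in CD103 low cells it was 0.03 ± 0.07 (-0.12 to 0.19). The means of the mature dendritic cell genes given above were also lowest in MDP CD103 high, and their part in the Spi1 values was not tested.

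Zbtb46 encodes a zinc finger factor of conventional dendritic cells and their committed precursors. It was at 8.50, 8.54 and 8.45 in MDP CD103 high, at 8.45, 8.39 and 8.31 in MDP CD103 low, at 8.58, 8.65 and 8.68 in PBS CD103 high, and at 8.45, 8.62, 8.62 and 8.39 in PBS CD103 low. Within CD103 high cells the MDP and PBS arrays did not overlap, whereas within CD103 low cells they did. The difference was -0.14 ± 0.08 in CD103 high cells (95% interval -0.32 to 0.03, adjusted p = 0.482) and -0.13 ± 0.07 in CD103 low cells (-0.29 to 0.03, adjusted p = 0.826). Averaged over the fractions it was -0.14 ± 0.05 (-0.26 to -0.02, adjusted p = 0.341).

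Irf4, Klf4 and Bcl6 had the widest spread within groups. Irf4, which drives cDC2 and is also raised in maturing dendritic cells, was at 5.08, 5.15 and 5.07 in MDP CD103 high, at 6.18, 5.24 and 5.23 in MDP CD103 low, at 5.06, 5.12 and 5.20 in PBS CD103 high, and at 5.28, 5.56, 5.26 and 5.19 in PBS CD103 low. Apart from MDP CD103 low replicate 1, the arrays lay at 5.06 to 5.56, near the background level of 5.12. In MDP mice CD103 high and low arrays did not overlap, with a difference of -0.45 ± 0.20 (95% interval -0.88 to -0.03, adjusted p = 0.452). It was -0.14 ± 0.10 (adjusted p = 0.86) without MDP CD103 low replicate 1, the array with the highest mature dendritic cell genes. In PBS mice the difference was -0.20 ± 0.18 (-0.59 to 0.20).

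Klf4, a zinc finger factor used by monocytes and by a subset of cDC2, was at 9.42, 9.69 and 8.77 in MDP CD103 high, at 9.76, 9.50 and 9.85 in MDP CD103 low, at 8.98, 9.11 and 9.30 in PBS CD103 high, and at 9.64, 9.81, 8.85 and 8.80 in PBS CD103 low. The arrays of MDP CD103 high and of PBS CD103 low were each split into high and low values. Bcl6 was at 9.91, 9.89 and 10.24 in MDP CD103 high, at 9.92, 9.98 and 9.97 in MDP CD103 low, at 10.44, 10.45 and 10.40 in PBS CD103 high, and at 9.88, 9.92, 10.37 and 10.40 in PBS CD103 low. It was split among the same arrays in the opposite direction.

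The split followed the replicate numbers of the labels, whose meaning is not stated. It was noticed after the values were seen, and no p is given for it. Klf4 was at 8.77 to 9.30 on the 6 arrays with numbers 4 to 6 and at 9.42 to 9.85 on the 7 arrays with numbers 1 to 3, a difference of -0.85 ± 0.11 (SE) with the group means kept. Bcl6 was at 10.24 to 10.45 on numbers 4 to 6 and at 9.88 to 9.98 on numbers 1 to 3, a difference of 0.43 ± 0.06. These were 2 of the 9 factors whose arrays did not overlap between the number classes, against 252 of all 22180 genes (1.14%). Heat shock genes had the same split, with an array mean over 8 genes of 9.42 to 9.78 on numbers 4 to 6 and 10.25 to 10.55 on numbers 1 to 3. For 13 immediate-early genes, which cells switch on within minutes of a stimulus, the means were 9.76 to 10.15 on numbers 4 to 6 and 10.22 to 10.42 on numbers 1 to 3. These 21 genes were listed after the values were seen, so they describe the split and do not test it. In 13 of the 21 the classes did not overlap, against 1.14% of all genes. All 21 were lower on numbers 4 to 6 with group means kept, a direction not counted over all genes. Among them were Hspb1 (-1.50 ± 0.10), Hspa1a (-0.90 ± 0.11) and Egr1 (-1.15 ± 0.15). The cause of the split was not tested.

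**Figure D3:**
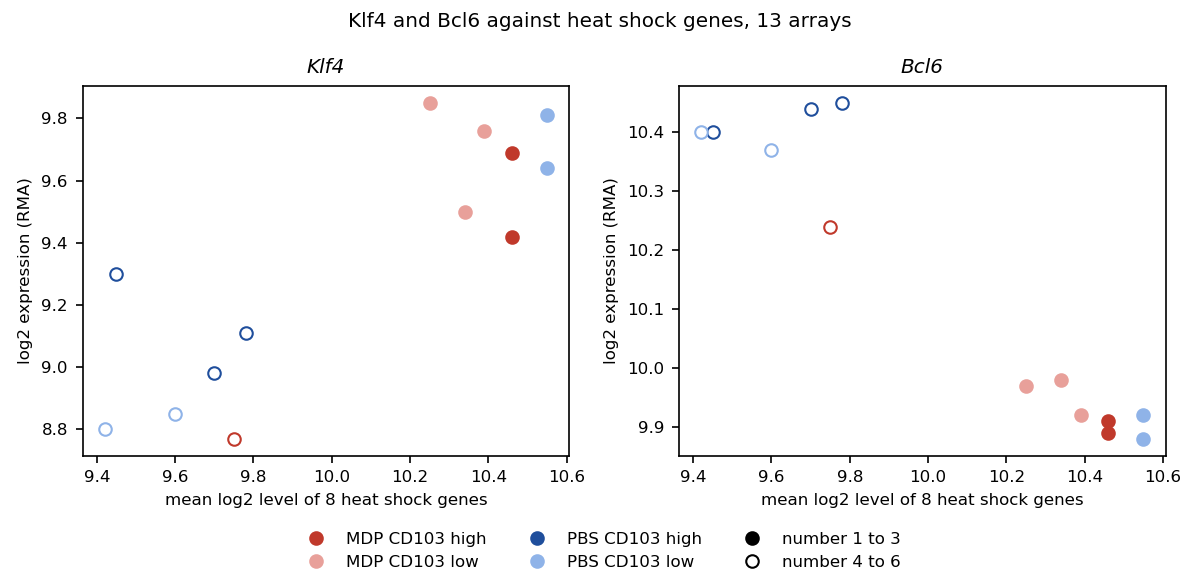
Log2 expression (RMA) of Klf4 and Bcl6 against the mean log2 level of 8 heat shock genes, 1 point per array, coloured by group, filled for replicate numbers 1 to 3 and open for 4 to 6. Open points, at 9.42 to 9.78 on the horizontal axis, are low in Klf4 and high in Bcl6, and filled points, at 10.25 to 10.55, are high in Klf4 and low in Bcl6.

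The number classes were spread unevenly over the groups. Numbers 4 to 6 made up 1 of 3 arrays in MDP CD103 high, 0 of 3 in MDP CD103 low, 3 of 3 in PBS CD103 high and 2 of 4 in PBS CD103 low. A comparison of MDP with PBS, or of CD103 high with CD103 low, therefore in part compares the classes. Only MDP CD103 high and PBS CD103 low hold arrays of both classes. Class differences with group means kept, and fits with number class as a term, take the size of the class difference from these groups. They assume that it is the same in the other groups. For Bcl6 in CD103 high cells, MDP minus PBS was -0.42 ± 0.14 (95% interval -0.72 to -0.11, adjusted p = 0.196), and the groups did not overlap. With number class as a term it was -0.13 ± 0.08 (adjusted p = 0.613), and within numbers 4 to 6 it was -0.19, from 1 array against 3. In CD103 low cells it was -0.19 ± 0.13 (adjusted p = 0.84), and 0.03 ± 0.07 with the term.

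Klf4 changed more between these fits. MDP minus PBS was 0.42 ± 0.26 in CD103 low cells (95% interval -0.13 to 0.98, adjusted p = 0.83), and within numbers 1 to 3 it was -0.03, from 3 arrays against 2. In CD103 high cells it was 0.16 ± 0.27 (-0.43 to 0.76, adjusted p = 0.86), -0.41 ± 0.14 with the term (adjusted p = 0.297) and -0.36 within numbers 4 to 6, from 1 array against 3. Nfil3 moved less, with -0.46 ± 0.14 in CD103 high cells with the term (adjusted p = 0.238) and -0.44 within numbers 4 to 6. Within single classes its CD103 high minus low difference was -0.40 in MDP mice (numbers 1 to 3, 2 arrays against 3) and 0.25 in PBS mice (numbers 4 to 6, 3 against 2).

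Counted over the whole set, the contrast with the most separated factors was MDP against PBS in CD103 high cells. There 0 of the 9 factors passed the adjusted threshold, against 1.82% of all genes, and 3 had an unadjusted p under 0.05 (Nfil3, Bcl6 and Spi1), against 13.3%. In 4 of the 9 (Nfil3, Bcl6, Spi1 and Zbtb46) the arrays did not overlap, against 19.0% of all genes in either direction. All 4 were lower in MDP, a direction not counted over all genes. Bcl6 was at -0.13 ± 0.08 with number class as a term. The median difference over the 9 factors was -0.03, against -0.01 over all genes.

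In CD103 low cells, MDP against PBS gave 0 of 9 factors past the threshold in limma (0.00451% of all genes), 0 at an unadjusted p under 0.05 (6.06%) and 0 without overlap (5.50%). The median difference over the 9 factors was 0.03, against 0.00 over all genes. Of these differences Klf4 had the largest, and the others lay between -0.19 for Bcl6 and 0.23 for Irf4.

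CD103 high against low in MDP mice gave 0 of 9 past the threshold (0.523% of all genes), 2 at an unadjusted p under 0.05 (Nfil3 and Irf4, against 10.2%) and 3 without overlap (Nfil3, Irf4 and Spi1, against 14.4%). In PBS mice it gave 0 of 9 (0.0766% of all genes), 1 at an unadjusted p under 0.05 (Nfil3, against 8.52%) and 1 without overlap (8.53%). Bcl6 there differed by 0.28 ± 0.13 (adjusted p = 0.585). With number class as a term the Bcl6 difference was 0.07 ± 0.07, and within numbers 4 to 6 it was 0.04, from 3 arrays against 2. The difference of the MDP responses gave 0 of 9 (0.0721% of all genes) and 1 at an unadjusted p under 0.05 (Nfil3, against 9.63%).

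Averaged over both fractions, MDP against PBS gave 0 of 9 (0.185% of all genes) and 3 at an unadjusted p under 0.05 (11.8%). These were Bcl6 at -0.30 ± 0.10, Zbtb46 at -0.14 ± 0.05 and Nfil3 at -0.17 ± 0.08. Bcl6 was at -0.05 ± 0.06 with number class as a term, and Nfil3 was at -0.10 ± 0.06 without PBS CD103 high replicate 6. Averaged over both treatments, CD103 high against low gave 0 of 9 (0.126%) and 1 at an unadjusted p under 0.05 (9.56%), which was Irf4 at -0.32 ± 0.13 (adjusted p = 0.475), or -0.17 ± 0.07 without MDP CD103 low replicate 1. The 4 pairwise comparisons share groups of arrays, so their values are not independent of each other.

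**Figure D4:**
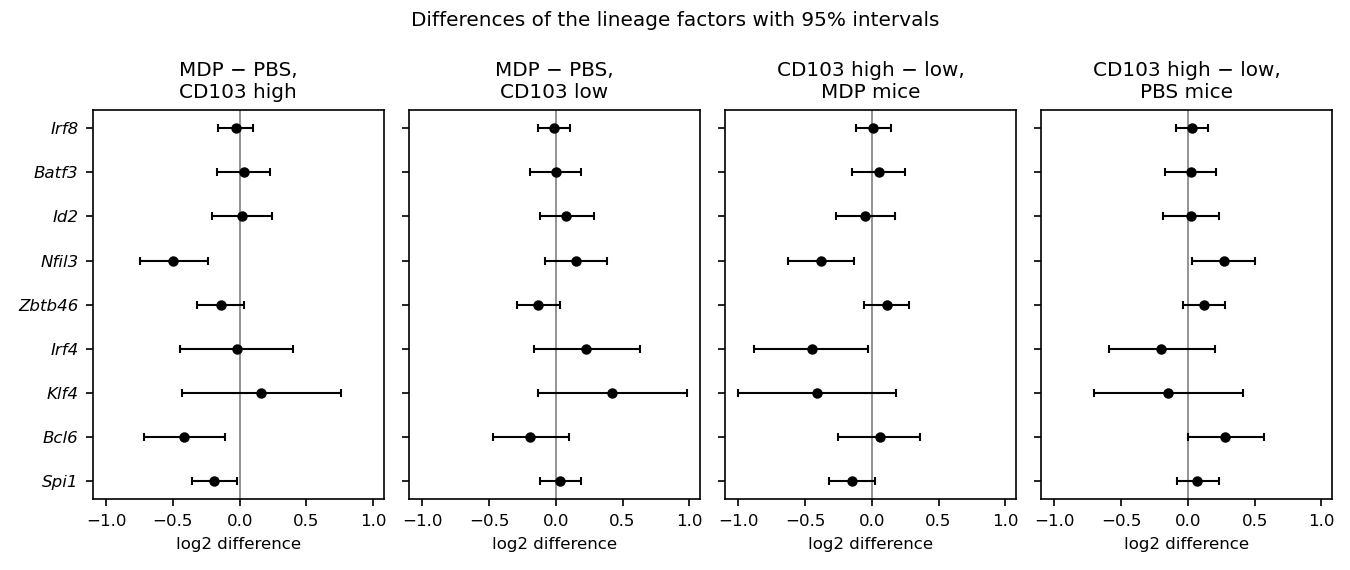
Log2 differences of the 9 factors from the limma fit, with 95% intervals, for MDP minus PBS in CD103 high and CD103 low cells and for CD103 high minus low in MDP and PBS mice. Nfil3 lies at -0.50 and 0.15 in the first 2 panels and at -0.38 and 0.27 in the last 2, and the intervals of Irf8 stay within -0.16 and 0.15.

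Partner factors of these lineage factors, listed in 5 families, were then read in the same fit, and 47 of 50 were measured. Of these, 1 passed the threshold, and it did so in 1 of the 7 contrasts. Relb, the NF-kB subunit of the non-canonical pathway that cDC2 and maturing dendritic cells depend on, was at 7.59, 7.90 and 8.08 in MDP CD103 high and at 8.85, 9.13 and 8.81 in PBS CD103 high. It was at 9.61, 8.46 and 8.52 in MDP CD103 low and at 8.54, 8.65, 8.73 and 8.48 in PBS CD103 low. The MDP CD103 high arrays were again the lowest of all, and MDP CD103 low replicate 1 was the highest.

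Relb fell after MDP in CD103 high cells, with a log2 difference of -1.07 ± 0.24 (95% interval -1.59 to -0.55, adjusted p = 0.0413 in limma), and it was 1 of 47 partners past the threshold there, a share close to the 1.82% of all genes. With number class as a term the value was -0.98 (adjusted p = 0.223), and the call was lost when any 1 of 10 of the 13 arrays was left out. The mean of the 24 mature dendritic cell genes, of which 3 fell, was also lowest in MDP CD103 high, as given above for Nfil3, and their part was not tested. In CD103 low cells Relb differed by 0.27 ± 0.23 (adjusted p = 0.866), and the difference of the responses was -1.34 ± 0.33 (adjusted p = 0.144).

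By family, 0 of 7 BATF and AP-1 proteins, 0 of 5 interferon regulatory factors, 0 of 6 E, Id and Zeb proteins and 0 of 11 Ets, Runx and Klf proteins passed in CD103 high cells between MDP and PBS. Their median differences were -0.14, -0.24, -0.00 and -0.09, and that of the 18 other regulators was -0.06. At an unadjusted p under 0.05, 9 of the 47 partners differed there, against 13.3% of all genes in either direction. Of the 9 partners, 8 were lower, a direction not counted over all genes. The exception was Myc, named here after its value was seen. 

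In the other contrasts 0 of 47 partners passed in limma, with 3 at an unadjusted p under 0.05 for MDP in CD103 low cells (6.06% of all genes), 9 for the fractions in MDP mice (10.2%), 2 for those in PBS mice (8.52%) and 8 for the difference of responses (9.63%). Of the partners named below, Ets1 and Prdm1 had mean levels of 4.81 and 5.09, not above the background level of 5.12, so their differences are those of probe sets near background. The partners with the smallest p for MDP in CD103 low cells were Zeb1 (-0.19), Ets1 (-0.27, or -0.17 without MDP CD103 low replicate 3) and Fosl2 (0.28), with adjusted p from 0.793 to 0.803. For the fractions in MDP mice they were Relb (-1.01 ± 0.24, adjusted p = 0.102), Runx3 (-0.36 ± 0.10, 0.149) and Irf1 (-0.60 ± 0.19, 0.239), and for the difference of responses Relb, Irf2 (-0.41) and Etv3 (-0.68). Without MDP CD103 low replicate 1 the fractions in MDP mice differed by -0.64 ± 0.14 for Relb (adjusted p = 0.118) and by -0.40 ± 0.17 for Irf1, and the difference of responses was -0.43 ± 0.15 for Etv3.
For the fractions in PBS mice they were Irf2 (0.22 ± 0.09), Prdm1 (-0.23 ± 0.10) and Cebpa (-0.37 ± 0.17), with adjusted p from 0.511 to 0.589. Prdm1 was at -0.13 ± 0.11 without PBS CD103 high replicate 6. Averaged over the fractions, MDP against PBS had 6 of 47 at an unadjusted p under 0.05 (11.8% of all genes) and put first Ahr (-0.43 ± 0.11, adjusted p = 0.131), Myc (0.41 ± 0.12, 0.182) and Relb (-0.40 ± 0.17, 0.362). Averaged over the treatments, CD103 high against low had 5 (9.56%) and put first Runx3 (-0.25 ± 0.07, 0.242), Cebpa (-0.45 ± 0.12, 0.257) and Tcf4 (-0.16 ± 0.06, 0.408). Runx3 is known for promoting Itgae transcription in T cells, and Tcf4 is the E protein that sets the plasmacytoid lineage.

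Genes whose pattern over the 13 arrays was most like that of each factor were listed by Pearson correlation, as a description that carries no test. The arrays share labelling and normalisation, and the 3 highest of 22180 correlations are high by selection. For Nfil3 they were Tent5c (r = 0.93), the autophagy gene Map1lc3b (0.92) and Rab11fip4 (0.92), and for Spi1 the cathepsin Ctsb (0.90), Sdhaf1 (0.89) and the adhesion molecule Icam1 (0.87). For Irf8 they were Plbd1 (0.86), Mroh6 (0.83) and Adora3 (0.83), over a range of values hardly wider than the spread within groups. For Batf3 they were Chchd6 (0.88), Dmrta1 (0.87) and Abi2 (0.85), for Id2 Tsc22d3 (0.87), Ly6g6f (0.84) and Gzmm (0.82), and for Zbtb46 Patj, Saraf and Serpinb1b (each 0.85).

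For Irf4, Dock9, Ndufb11 and Specc1 came first, at 0.95, 0.94 and 0.94, and were at 0.71, 0.64 and 0.71 without MDP CD103 low replicate 1. For Klf4 and Bcl6 the arrays form separate clusters by number class, and correlations are given within the classes of 7 arrays (numbers 1 to 3) and 6 arrays (numbers 4 to 6). With Klf4 these were 0.46 and 0.93 for the immediate-early gene Jun, 0.72 and 0.79 for Egr1, and 0.47 and 0.69 for Fos. With Bcl6 they were 0.84 and 0.41 for Necap1, 0.57 and 0.92 for Map3k9, and 0.44 and 0.76 for Purg.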

How the data were processed

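RNA of sorted CD205+CD8+ spleen cells (400 ng, pre-amplified, per the labels' protocols) was measured on 13 Affymetrix arrays. The deposited table holds log2 probe set levels, for which the submitters' processing notes name RMA and Affymetrix Expression Console. Their versions and the genome build are not stated in those sources, and scanner files were not used. RMA equalises the distributions of the arrays, so a change shared by most genes would be removed. Array medians lay between 5.00 and 5.13, and correlations between arrays were 0.976 to 0.991. Precision is limited by the small number of arrays, 3 or 4 in a group.

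Of 41345 probe sets, 23521 had 1 symbol and gave 22180 genes, with the highest-mean probe set used for 1082 genes that had several. Gene IDs of 21994 genes matched the RefSeq table, which changed 0 symbols. A single limma fit (version 3.58.1, under R 4.3.3) took in the 13 arrays with 1 mean per group (lmFit, contrasts.fit and eBayes, 9 residual and 3.86 prior degrees of freedom). Tests were two-sided, with Benjamini-Hochberg adjustment over 22180 genes in each of 7 contrasts and a threshold of 0.05. The script was tested on simulated data. Named were all measured lineage factors, partner factors past the threshold or otherwise the 3 with the smallest p, up to 2 members of other lists in each direction, and the 3 genes most correlated with each factor. Members, gene lists and rules were chosen with earlier results of these data known, and the heat shock and immediate-early list after the values were seen.

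Arrays that share a replicate number and treatment (4 pairs, a CD103 high and a CD103 low array each) had correlated deviations from their group means (r = 0.115 to 0.289) and the same sex chromosome class in 4 of 4. Pairs of other numbers within a treatment had r = -0.253 to 0.18. The 5 same-numbered pairs across treatments had r = -0.13 to 0.403, the highest being MDP CD103 high 4 with PBS CD103 low 4. The 37 pairs of other numbers across treatments had r = -0.37 to 0.207, with 9 over 0.1. The numbers were read as pairing arrays within a treatment. The labels do not state this pairing, and the overlapping ranges of r do not settle it. The main fit did not use this pairing and treated all arrays as independent. It entered only the alternative with treatment and number as a random block. Alternatives were 22 planned and 3 added settings. Python 3.11.15 with pandas 2.3.3, matplotlib 3.10.9 and numpy 2.4.6 served for tables and plots.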

Additional observations from a re-analysis of the deposited data

Results flagged for a closer look

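Nfil3 and, among the 47 partner factors, Klf6 and Relb stood out because CD103 high and CD103 low arrays did not overlap in MDP mice or in PBS mice, in opposite directions. For Nfil3, CD103 high minus low was -0.38 in MDP mice and 0.27 in PBS mice, and the difference between them was -0.64 ± 0.16 (limma, adjusted p = 0.141), which did not pass the threshold. For Relb it was -1.01 in MDP mice and 0.33 in PBS mice, and the difference was -1.34 ± 0.33 (limma, adjusted p = 0.144), which did not pass either. For Klf6, a zinc finger factor, it was -0.11 in MDP mice and 0.09 in PBS mice, and the difference was -0.20 ± 0.09 (limma, adjusted p = 0.515). The same separation was found in 164 of 22180 genes (0.739%), Ccr7 among them.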

How the results depend on the processing

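In all, 1548 differences of the 9 factors were recomputed under 22 planned and 3 added settings, of which 7 passed the threshold, all for Nfil3 in CD103 high cells between MDP and PBS. The count of lineage factors there was 1 in place of 0 with the mean of probe sets (adjusted p = 0.0499), a trended and robust variance (0.0197), genes above the median expression (0.0207), array weights (0.0367) and the sex chromosome class as a term (0.0431). It was 0 to 1 with 1 array left out, and 1 where the array left out was PBS CD103 high replicate 4 (0.037) or MDP CD103 low replicate 1 (0.039). It stayed 0 with the replicate number as a fixed block (Nfil3 adjusted p = 0.532), with treatment and number as a random block (-0.49 ± 0.12, adjusted p = 0.0571), with the 2 groups alone (0.165) and with the number class as a term (0.238). The random block, which follows the pairing within a treatment, changed no call of a lineage factor. The count of partner factors there, 1 in the main fit, was 2 with a trended and robust variance, above the median expression and with number class without MDP CD103 low replicate 1. It was 0 with the fixed replicate block, where Relb was at -0.75 (adjusted p = 0.539), the sex chromosome class, the number class and both classes, and 0 to 2 with 1 array left out. Averaged over the fractions, the count of partners between MDP and PBS was 0 to 1 with 1 array left out. Of the 1548, 19 turned direction although the main value exceeded its SE, all far from the threshold (lowest adjusted p = 0.608). MDP minus PBS in CD103 low cells became -0.08 for Irf4 without MDP CD103 low replicate 1 (-0.08 to 0.39 over all arrays left out in turn) and -0.15 with the number class besides. It became -0.03 for Klf4 in that last fit. For Bcl6 it was 0.02 with the fixed block, 0.03 with the number class, alone or with the sex chromosome class, and 0.04 in that last fit. Averaged over the fractions, MDP minus PBS for Klf4 was -0.13 with the fixed block, -0.21 with the number class, alone or with the sex chromosome class, and -0.22 in the last fit. Averaged over the treatments, CD103 high minus low for Klf4 was 0.09, 0.08, 0.07 and 0.09 in those 4 fits, and for Bcl6 it was -0.03, -0.01, -0.01 and -0.02. A further 76 turned direction from a main value within its SE. The cause was not tested.

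Counts over all genes depended on the setting. For MDP against PBS they were 0 to 2 in CD103 low cells (main 1) and 0 to 702 in CD103 high cells (main 403), where the fixed block gave 0 and a left-out array 82 to 594. For CD103 high against low they were 0 to 233 in MDP mice (main 116) and 0 to 25 in PBS mice (main 17). They were 0 to 144 for the difference of responses (main 16), 0 to 231 for the average over fractions (main 41) and 0 to 87 for that over treatments (main 28). A fit of only the groups compared gives no value for the last 3. With 3 or 4 arrays per group, and Irf4 near the background level, small differences could not be resolved.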

Other observations

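Markers of other dendritic cells were counted in the same fit. Of 10 measured markers of plasmacytoid dendritic cells, 2 fell after MDP in CD103 high cells, Cd300c at a log2 difference of -0.96 (limma, adjusted p = 0.0052) and Pacsin1 at -0.77 (adjusted p = 0.013), against 1.82% of all genes past the threshold. In PBS mice both were higher in the CD103 high fraction, by 0.90 each over CD103 low (adjusted p = 0.0328 and 0.0294, against 0.0766% of all genes). The list as a whole moved little. Its median difference was -0.08 for MDP in CD103 high cells, where 4 of the 10 lay above 0. Between the fractions in PBS mice it was 0.10, with 6 of the 10 above 0. Of 12 markers of cDC2, 1 was lower in the CD103 high fraction of MDP mice than in the low one, Sirpa, an inhibitory receptor, at -0.50 (adjusted p = 0.0308, against 0.523% of all genes). The median difference over the 12 cDC2 markers was -0.10 there, against -0.01 over all genes. Of 17 cDC1 markers, the sort markers Cd8a and Ly75 included, 0 passed the threshold in any contrast, where 0.00451% to 1.82% of all genes did. The medians of the cDC1 markers lay between -0.03 and 0.04, against -0.01 to 0.00 over all genes.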
